A study of Macaca fascicularis with 22 samples.

Results

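Haemoglobin is built from alpha-type and beta-type globin chains, each holding a haem group that binds oxygen. The genes of each type are used in turn during development: zeta (HBZ) and epsilon (HBE1) in the embryo, gamma (HBG1 and HBG2) with alpha in the fetus, and beta (HBB) with alpha after birth, with gamma giving way to beta around birth in macaques as in humans. Red cell precursors form in the fetal liver before the bone marrow takes over, and circulating immature red cells carry globin RNA into every tissue that holds blood.

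The genes described here are the globins of both loci with ALAS2, the erythroid enzyme of the first step of haem synthesis, and AHSP, the chaperone that binds free alpha globin. They were found by the human RefSeq identifiers that annotate the probes, and 6 of the 10 listed genes had a probe among the 20217 probes of the array. These were HBB (NM_000518), HBG1 (NM_000559), HBE1 (NM_005330), HBZ (NM_005332), ALAS2 (NM_000032) and AHSP (NM_016633), with 2 probes for HBG1 (A_01_P006073 and A_01_P010779) and 1 for each other gene. HBA1 (NM_000558), HBA2 (NM_000517), HBD (NM_000519) and HBG2 (NM_000184) had no probe under their identifiers. HBG1 and HBG2 are near-identical, so the HBG1 probes may also read HBG2 RNA. All 7 probes passed the filter on dim probes that kept 17117, and all were well above background on all 22 arrays except ALAS2, which was not on skeletal muscle ABW replicate 4 and LBW replicate 3.

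The study set cynomolgus macaque (Macaca fascicularis) neonates of lower birth weight (LBW, 5th to 25th centile) against neonates of average birth weight (ABW, 50th to 75th centile). Total RNA of skeletal muscle (biceps), umbilical cord and liver was hybridized to single-colour arrays designed for the rhesus macaque, with 4 arrays in each of the skeletal muscle and umbilical cord groups and 3 in each liver group by the labels. No group carried a genetic change or a treatment. Per the methods all pregnancies had the same sire, umbilical cords were taken at birth, and muscle and liver some days later after exsanguination under anaesthesia, whereas the labels give all tissues as taken at birth.

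A level is given below as the log2 signal of a probe relative to the 75th percentile of its array, so 0 is that percentile and 1 unit is a doubling. Levels are compared between arrays for one probe and not between probes. The unscaled 75th percentile ran from 315.5 to 2390 across the arrays, and no probe was saturated. On the arrays labelled liver ABW replicates 1 and 2 and LBW replicate 2, HBB and both HBG1 probes ranked 9 to 15 by signal. Their signals there were 194256 to 220015, where the highest signal of any probe was 332850 to 348455. Whether signals this bright still rise in proportion to RNA was not tested. The arrays lay on 6 slides. Skeletal muscle ABW filled slide 1 and skeletal muscle LBW slide 2, and in muscle the effects of slide and of birth weight cannot be told apart. Slide 6, with umbilical cord ABW replicates 3 and 4, was extracted with a later version of Feature Extraction than the others.

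The tissue labels of liver and umbilical cord went against their markers. All 17 probes of 15 hepatocyte genes, among them ALB, APOA1 and FGB, had their lowest value on the arrays labelled umbilical cord above their highest on those labelled liver. Their summed level was 1384 to 3583 times the 75th percentile on the arrays labelled umbilical cord and 0.557 to 1.04 times on those labelled liver, where 11 of the 17 were well above background on no array. All 7 probes of a matrix list that includes COL1A1 and LUM lay higher on every array labelled liver, with a summed level of 599.9 to 689 against 9.22 to 22.3. All 7 striated muscle probes were highest on the skeletal muscle arrays. The words liver and umbilical cord below therefore name the labels of arrays, not a tissue shown by its markers.

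Beta globin was highest on the arrays labelled liver. The HBB levels there were 7.94, 7.94 and 6.82 in ABW and 7.06, 7.88 and 5.57 in LBW. Under the umbilical cord label they were 4.90, 5.88, 4.63 and 5.38 in ABW and 3.60, 5.07, 4.91 and 5.51 in LBW. On skeletal muscle they were 3.30, 3.21, 3.90 and 1.42 in ABW and 4.01, 5.08, 3.46 and 4.09 in LBW. Every muscle array lay below every array labelled liver, and the arrays labelled umbilical cord overlapped with both. In bulk tissue, fewer blood cells and less RNA per cell cannot be told apart.

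Gamma globin, the fetal chain, was spread more widely than beta under every label. The levels of HBG1 probe A_01_P006073 were 8.06, 7.96 and 3.90 in ABW and 6.70, 7.94 and 5.47 in LBW on the arrays labelled liver. They were 4.61, 5.85, 2.65 and 5.30 in ABW and 0.40, 0.50, 3.72 and 4.88 in LBW on those labelled umbilical cord. In skeletal muscle they were 0.22, 2.87, 4.12 and -1.17 in ABW and -0.52, 4.01, 2.15 and 2.93 in LBW. The birth weight groups overlapped under every label. From the lowest to the highest array the probe spanned 4.16 log2 units under the liver label, 5.45 under the umbilical cord label and 5.29 in muscle, where HBB spanned 2.37, 2.28 and 3.66. The second HBG1 probe, A_01_P010779, spanned 4.71, 5.28 and 5.19. The probes thus put the arrays in much the same order, with an offset that differed by label. The first minus the second lay between 0.45 and 1.43 on the arrays labelled umbilical cord, between -0.11 and 0.53 on those labelled liver and between -0.08 and 0.82 in muscle.

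Epsilon globin, the embryonic beta-type chain, followed gamma on the arrays labelled liver. HBE1 levels were 4.52, 4.66 and -1.80 in ABW and 1.43, 4.72 and -0.35 in LBW there, a range of 6.52 log2 units. ABW replicates 1 and 2 and LBW replicate 2 were the highest arrays for HBE1 as they were for HBB and both HBG1 probes, and ABW replicate 3 was the lowest for HBE1 and HBG1 but not for HBB. Levels were -1.30, 0.51, -1.17 and 1.22 in ABW and -2.08, -3.25, -1.53 and -0.77 in LBW under the umbilical cord label. Muscle had -3.71, -2.37, -1.70 and -3.74 in ABW and -2.88, -1.67, -1.48 and -2.34 in LBW.

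Zeta globin, the embryonic alpha-type chain, ran the other way between labels. HBZ levels were 5.25, 4.44, 6.03 and 4.73 in ABW and 5.71, 4.28, 4.54 and 4.85 in LBW under the umbilical cord label. Under the liver label they were 3.20, 2.95 and 2.72 in ABW and 3.27, 2.85 and 2.17 in LBW, and in muscle 2.30, 2.73, 2.25 and 2.08 in ABW and 2.62, 2.28, 3.89 and 2.15 in LBW. Every array labelled umbilical cord thus lay above every other array, and within a label the HBZ level spanned no more than 1.80 log2 units. Whether this probe also binds the RNA of other alpha-type globins was not tested.

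ALAS2 had the widest range between labels. Its levels were 2.88, 3.43 and -1.86 in ABW and -0.69, 3.18 and -2.14 in LBW under the liver label, and the 3 highest arrays were those that were highest for HBE1. Under the umbilical cord label they were -2.97, -1.85, -4.33 and -2.25 in ABW and -4.55, -3.73, -2.90 and -1.66 in LBW, and in muscle between -7.71 and -3.77. AHSP was highest on the same 3 arrays labelled liver, with levels of -0.25, 0.75 and -2.80 in ABW and -2.46, 0.06 and -2.29 in LBW. Elsewhere AHSP lay between -2.53 and -0.45 under the umbilical cord label and between -2.71 and -1.11 in muscle.

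**Figure D1:**
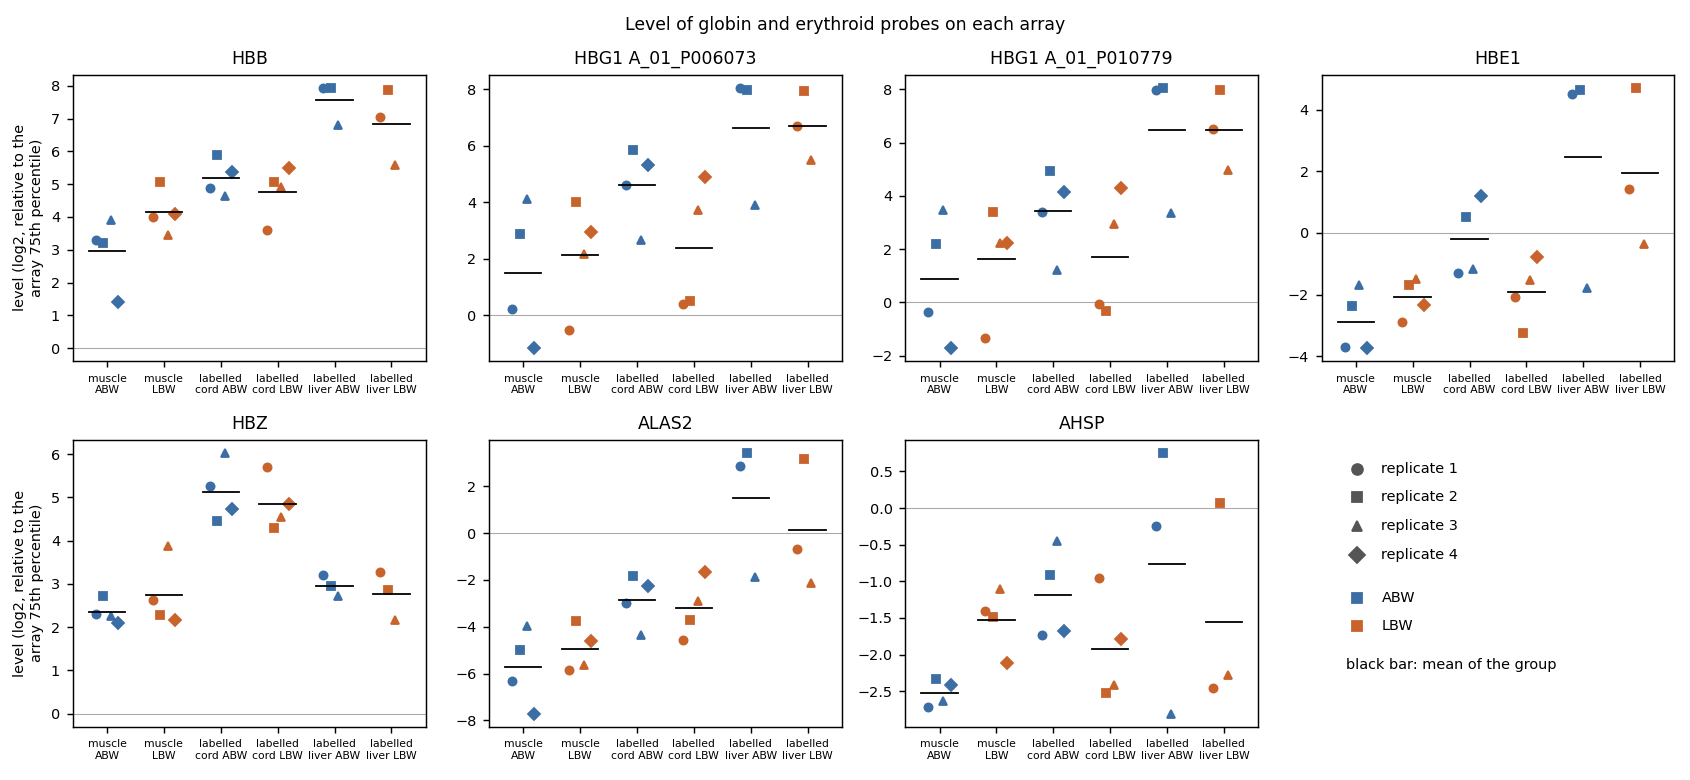
Level of each probe on each of the 22 arrays, as log2 relative to the array's 75th percentile, by tissue label and birth weight group. Symbols mark replicate numbers, colours birth weight, and black bars group means. HBB, HBG1, HBE1 and ALAS2 were highest on arrays labelled liver, and HBZ on those labelled umbilical cord.

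In limma fits of the 6 groups, 6 of the 7 probes passed an adjusted p under 0.05 between umbilical cord and liver as labelled. HBZ was higher under the umbilical cord label by 2.12 ± 0.30 log2 units (SE, limma, adjusted p 3.3e-06), a 4.35-fold difference. The 5 probes that were lower were HBB at -2.22, the HBG1 probes at -3.18 and -3.91, HBE1 at -3.24 and ALAS2 at -3.83. AHSP differed by -0.39, with a 95% confidence interval of -1.37 to 0.58. Most of the array differed between these labels too, with 35.6% of all probes higher and 31.3% lower, beside 1 and 5 of the 7.

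Skeletal muscle was compared with both labels. The muscle arrays shared no slide with the others, so in these comparisons the effects of slide and of tissue cannot be told apart. Against the liver label 5 of the 7 probes passed as lower in muscle and none as higher, where over all probes 28.1% were lower and 37.1% higher. HBB (-3.64), both HBG1 probes (-4.85 and -5.22), HBE1 (-4.69) and ALAS2 (-6.15) were lower in muscle, while HBZ differed by -0.32 (95% confidence interval -0.95 to 0.31) and AHSP by -0.86 (-1.84 to 0.12). ALAS2 was thus 71.0-fold lower (adjusted p 3.9e-06 by limma). Against the umbilical cord label, HBB (-1.42), HBZ (-2.44) and ALAS2 (-2.32) were lower in muscle, where 35.8% of all probes were higher and 29.1% lower. That is 3 of the 7 as lower and none as higher. Both HBG1 probes (-1.66 and -1.31), HBE1 (-1.44) and AHSP (-0.47) did not pass there, and the intervals of the HBG1 probes reached from -3.56 to 0.70.

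The order of levels was therefore liver, umbilical cord and muscle as labelled for HBB and ALAS2 with each step past the test. For HBG1 and HBE1 umbilical cord and muscle were not separated beyond their spread. For HBZ umbilical cord came first and liver and muscle were not separated, and for AHSP no labels were. Between muscle and liver this depended on the setting, since HBZ passed as lower in muscle with quantile normalization (-0.68, adjusted p 0.036 by limma), and AHSP did with spike-in scaling (-1.61, adjusted p 0.018 by limma) and without liver ABW replicate 3 (-1.37, adjusted p 0.0050 by limma). Slide 4 held 2 arrays of each of the labels umbilical cord and liver, and within it 1 of the 7 probes, HBZ at 2.34, passed between these labels. There the 5 lower probes differed by -1.34 to -2.93. With arrays scaled to their spike-in controls, which moved the median difference of all probes between muscle and liver from 0.21 to -0.54 and between muscle and umbilical cord from 0.11 to -1.08, all 7 probes passed as lower in muscle than under umbilical cord.

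**Figure D2:**
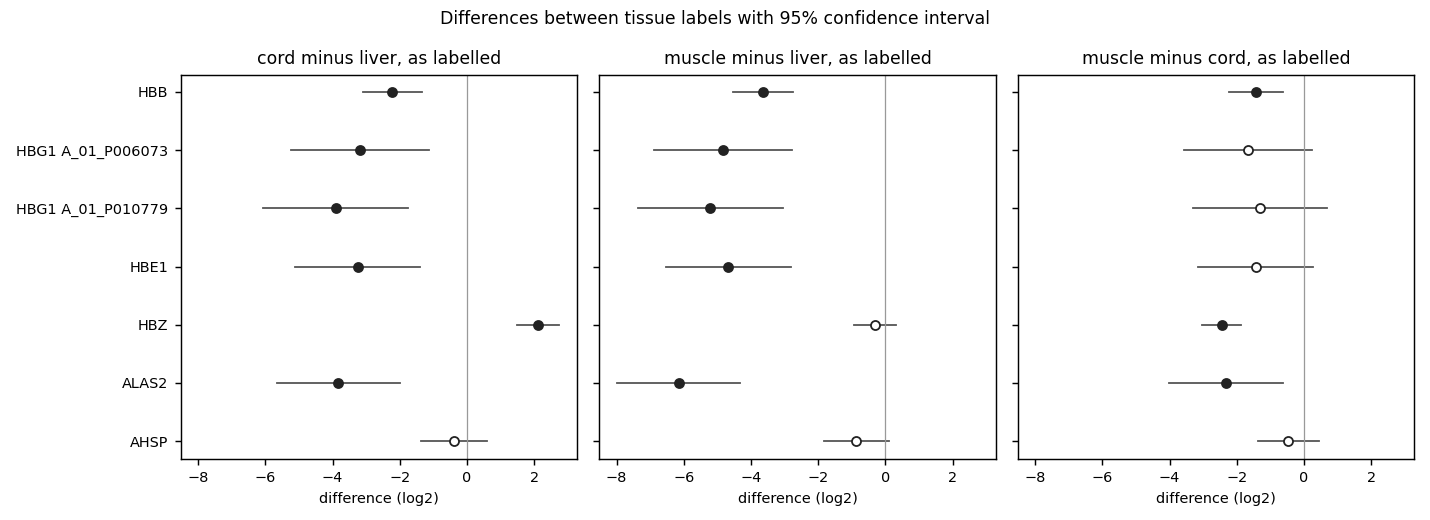
Difference in level between tissue labels for each probe, in log2 units, with 95% confidence intervals from limma. Filled points passed an adjusted p under 0.05, as 6, 5 and 3 of the 7 probes did from left to right.

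Genes of the red cell and of haem were measured by 45 probes that passed the filter, from 7 lists of 57 genes. The list of other globins held mu globin (HBM, NM_001003938), which lies in the alpha locus, at levels of -3.70 to 2.26 under the liver label, -3.83 to 0.12 under umbilical cord and -5.75 to -3.59 in muscle. Muscle minus the liver label was -3.95 log2 units for HBM (SE 0.82, limma, adjusted p 0.00028) and did not pass between umbilical cord and liver (-1.42, adjusted p 0.13). Myoglobin (MB, NM_203377), the oxygen store of muscle, was highest in muscle, at 7.62 to 8.84, against -8.06 to -5.74 under the liver label. It was well above background on 3 of the 6 arrays there, so no exact fold is given.

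Of the regulators of globin switching, BCL11A (NM_022893), a repressor of gamma globin, was highest under the liver label. It lay at -3.44 to -2.55 there, against -8.04 to -5.83 under umbilical cord, and umbilical cord minus liver was -3.69 log2 units (adjusted p 6.3e-10, limma), with 3 of the 8 umbilical cord arrays well above background. In muscle it was well above background on no array, and the liver label was at least 17.8-fold higher. Of the 4 probes of this list 1 was higher and 1 lower between umbilical cord and liver. Among 9 probes of erythroid transcription factors and receptors, 3 were higher and 2 lower under the umbilical cord label. Of all probes 35.6% were higher and 31.3% lower between these labels. HEMGN (NM_018437), a nuclear protein of red cell precursors, was lower in muscle than under the liver label (limma, adjusted p 0.0011), at -8.73 to -5.99 against -7.27 to 0.15. It was well above background on 1 of the 8 muscle arrays, so no exact fold is given. The erythropoietin receptor EPOR (NM_000121) was higher in muscle than under the liver label by 3.70 (limma, adjusted p 2.3e-06). Under umbilical cord EPOR was higher than under liver by 4.84 (limma, adjusted p 4.7e-08). The others higher there were GATA1 at 1.95 and GFI1B at 1.48 (limma, adjusted p 0.00016 and 0.026), opposite in direction to HBB and ALAS2. The lower were LMO2 at -1.50 and TAL1 at -1.35.

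The enzymes of haem synthesis other than ALAS2 went with the umbilical cord label. Of 8 probes 7 were higher there than under the liver label and none lower, beside 35.6% and 31.3% of all probes. Their median was 1.63 log2 units against 0.13 for all probes, while ALAS2 was at -3.83. Examples chosen after their values were seen were ALAD (NM_000031), an enzyme of a later step, at 5.35 and ALAS1 (NM_000688), the form of ALAS2 used outside red cells. ALAS1 was well above background on 3 of 8 arrays labelled umbilical cord and on none of the others, which leaves a fold of at least 1.66.

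Genes that clear haem and haemoglobin and handle iron showed the same direction. Of 7 probes 6 were higher under the umbilical cord label than under liver, beside 35.6% of all probes, with a median of 4.33. Haptoglobin (HP, NM_005143), which binds free haemoglobin, was at least 10153-fold higher, since it was well above background on no array labelled liver. Hemopexin (HPX, NM_000613), which binds free haem, was higher by 10.80, and transferrin (TF, NM_001063), the iron carrier of plasma, by 11.15. HP, HPX and TF are made by hepatocytes, and the hepatocyte list was also higher under the umbilical cord label. Whether hepatocyte content accounts for this direction was not tested.

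Red cell membrane and enzyme genes were mixed. Of 7 membrane probes 2 were lower under umbilical cord than liver and 0 higher, beside 31.3% and 35.6% of all probes. Glycophorin C (GYPC, NM_002101) was among the lower at -2.16, and 5 of the 12 membrane genes on the array did not pass the filter. GYPC was higher in muscle than under either label, by 3.82 over umbilical cord and 1.66 over liver (limma, adjusted p 2.1e-10 and 8.1e-05). Of 6 enzyme probes 3 were higher and 3 lower, with TRIM58 (NM_015431), a ubiquitin ligase of late red cell precursors, among the lower (adjusted p 0.00054, limma) and well above background on 1 of the 8 umbilical cord arrays. BPGM (NM_199186), which makes the compound that lowers the oxygen affinity of haemoglobin, was higher in muscle than under umbilical cord by 2.10 and 2.13 on its 2 probes.

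The arrays labelled liver differed among themselves in some other red cell genes as well. HBM was 1.72, 2.26 and -3.06 in ABW and -1.86, 1.70 and -3.70 in LBW. HEMGN was -2.22, 0.15 and -7.27 in ABW and -4.54, -0.95 and -6.78 in LBW. KLF1 (NM_006563), the transcription factor that activates beta globin, was -3.02, -1.19 and -7.01 in ABW and -5.13, -1.85 and -5.86 in LBW, and was chosen after its values were seen. HEMGN and KLF1 were each well above background on 5 of the 6 arrays. ABW replicates 1 and 2 and LBW replicate 2 were the highest for each of them, as for ALAS2 and AHSP, while HBZ was highest on LBW replicate 1. Of the other red cell genes some varied less under this label. The SE of LBW minus ABW was 0.34 for TAL1 and 0.21 for GYPC. It was 1.33 for EPB42, 1.47 for NFE2, 1.66 for KLF1 and 1.82 for HBM (limma). The pattern was not confined to red cell genes, since the platelet gene PF4 was highest on the same arrays. PF4 was also the probe outside the members most like HBB, so it does not stand for the other leukocyte and platelet genes. PF4 was -0.65, -1.25 and -2.16 in ABW and -4.02, -1.74 and -4.21 in LBW. The summed level of 11 leukocyte and platelet probes was 44.1, 6.37 and 1.46 in ABW and 7.62, 2.79 and 1.60 in LBW. LBW replicate 1 thus stood above ABW replicate 2 and LBW replicate 2 in this sum, whose part in these levels was not tested.

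**Figure D3:**
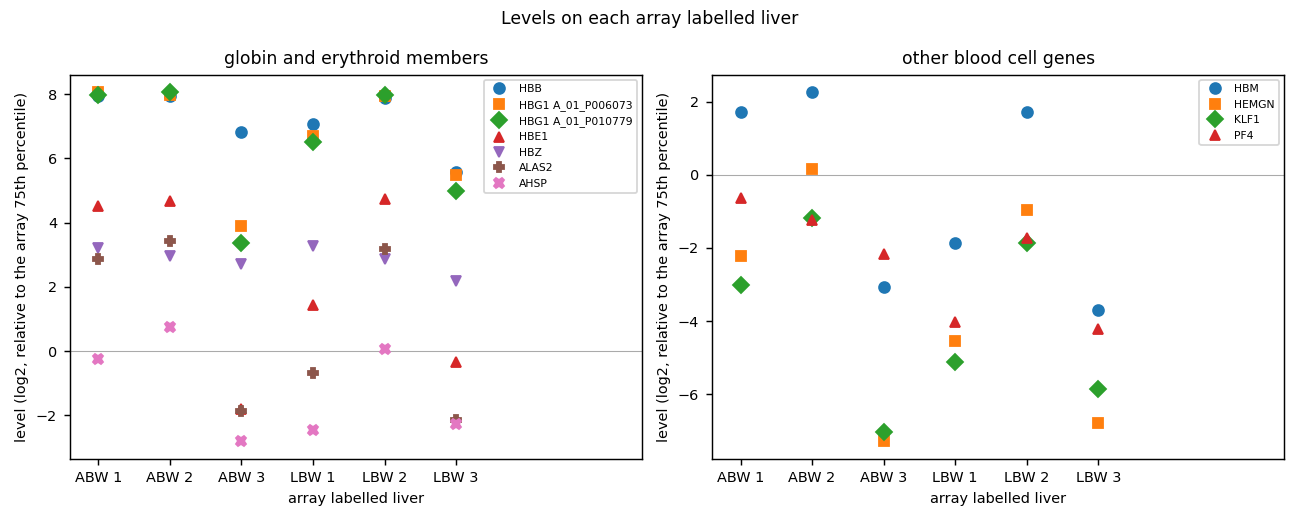
Levels on each of the 6 arrays labelled liver, as log2 relative to the array's 75th percentile, for the 7 globin and erythroid probes (left) and for HBM, HEMGN, KLF1 and the platelet gene PF4 (right). HBE1, ALAS2, AHSP, HBM, HEMGN, KLF1 and also PF4 were highest on ABW replicates 1 and 2 and LBW replicate 2.

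With each group's mean removed, the members most like HBB over the 22 arrays were ALAS2 (Pearson r 0.85) and the HBG1 probes (0.75 and 0.73), followed by HBE1 (0.62). AHSP (0.22) and HBZ (-0.23) were not alike. The other probes most like HBB were PF4 (NM_002619), a platelet chemokine, at 0.78, and those annotated NM_207376, CN642745, NM_139250 and NM_006849, at 0.74, 0.74, 0.74 and 0.72. These values share the scaling and, within a slide, the hybridization, and serve as a description.

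The balance of fetal to adult beta-type globin was taken on each array as the mean of the HBG1 probes minus HBB. It shows how arrays differ and not how much of each chain was present. On liver ABW replicates 1 and 2 and LBW replicate 2 these probes were among the brightest, and an effect of this on the balance was not tested. On the arrays labelled liver it was 0.07, 0.08 and -3.19 in ABW and -0.46, 0.07 and -0.34 in LBW. On those labelled umbilical cord it was -0.90, -0.48, -2.69 and -0.66 in ABW and -3.43, -4.98, -1.58 and -0.92 in LBW. In muscle it was -3.37, -0.68, -0.10 and -2.86 in ABW and -4.95, -1.38, -1.27 and -1.51 in LBW. The lowest arrays, below -2.6, were of ABW under the liver label and of both birth weight groups under umbilical cord and in muscle.

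LBW and ABW did not separate in this balance under any label. LBW minus ABW was -1.54 log2 units under umbilical cord (exact permutation test, two-sided, p 0.17), -0.52 in muscle (exact permutation p 0.71) and 0.77 under liver (exact permutation p 0.90). HBE1 minus HBB differed by -1.30 under umbilical cord (exact permutation p 0.11), -0.42 in muscle (exact permutation p 0.51) and 0.21 under liver (exact permutation p 0.80). Over these 6 tests the lowest adjusted p was 0.51 (exact permutation). With 3 arrays against 3 the smallest p possible is 0.10 (exact permutation), and with 4 against 4 it is 0.029 (exact permutation).

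**Figure D4:**
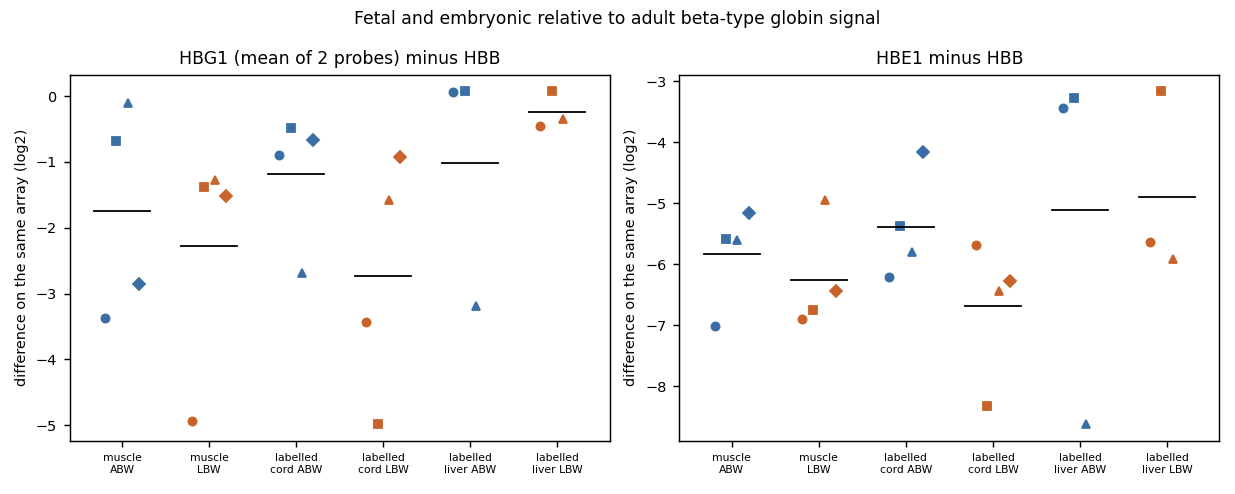
Within-array difference between the mean of the HBG1 probes and HBB (left) and between HBE1 and HBB (right), in log2 units, by tissue label and birth weight group. Symbols and colours are those of the plot of levels by array, and black bars are group means. Values of LBW and ABW overlapped under every label.

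LBW against ABW is the comparison for which the study was made. In skeletal muscle none of the 7 probes passed an adjusted p under 0.05 by limma, where 0% of all probes did, and 2 of 7 had an unadjusted p under 0.05, as did 14.7% of all probes. AHSP was -2.71, -2.33, -2.63 and -2.41 in ABW and -1.41, -1.48, -1.11 and -2.12 in LBW. All 4 LBW arrays lay above all 4 ABW arrays, as they did for 8.61% of all probes, and for 1.92% all lay below. The difference was 0.99 ± 0.24 log2 units (SE), 1.99-fold, with an unadjusted p of 0.0022 and an adjusted p of 0.12 by limma, and an exact permutation p of 0.029, the smallest possible.

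HBB had a difference of 1.21 ± 0.53 log2 units in muscle (SE, limma, adjusted p 0.34), with 3 of the 4 LBW arrays above all ABW arrays. Without ABW replicate 4 the difference was 0.69. The differences of the 7 probes were all above 0, from 0.39 for HBZ to 1.21. Their median was 0.77 against 0.07 over all probes, of which 57.3% were above 0. These are not independent readings, since both HBG1 probes read the same gene and ALAS2, HBG1 and HBE1 followed HBB. Dim probes were shifted up more than all probes. At levels of -6 to -4, where ALAS2 lay in muscle with a mean of -5.35, the median was 0.26 and 66.1% were above 0. With spike-in scaling the median of all probes was -0.47 and HBZ was at -0.15. Both HBG1 probes turned below 0 without ABW replicate 4, at -0.26 and -0.14. The summed level of the leukocyte and platelet list was 1.13 to 1.20 in ABW and 1.34 to 2.53 in LBW, with 9 of its 11 probes above 0 in the difference, and its part was not tested. The matrix list had 0 of 7 above 0.

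Under the umbilical cord label all 7 differences, again not independent readings, were below 0, from -2.23 to -0.27. Their median was -0.73 against -0.01 over all probes. None passed an adjusted p under 0.05 by limma, where 0.625% of all probes did, and 1 of 7 had an unadjusted p under 0.05, as did 8.94% of all probes. HBE1 had a difference of -1.72 ± 0.67 log2 units (SE, limma, unadjusted p 0.026, adjusted p 0.50, exact permutation p 0.11). HBG1 probe A_01_P006073 had a difference of -2.23 (95% confidence interval -4.56 to 0.10), since LBW replicates 1 and 2 lay at 0.40 and 0.50 below all other arrays of the label. No probe had groups that did not overlap, and of all probes 2.65% lay wholly above and 3.21% wholly below.

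The ABW arrays under this label came from slides 4 and 6 and the LBW arrays from slide 5. With the ABW arrays of slide 4 alone the differences ran from -2.86 to -0.00, and with those of slide 6 alone from -1.93 to 0.08, where ALAS2 was above 0. With slide as a random block the lowest adjusted p was 0.21 by limma. No slide held both birth weight groups under this label, so the block cannot adjust for slide. As in muscle, the effects of slide and of birth weight cannot be told apart here. The leukocyte and platelet list was summed to 4.72 to 25.7 in ABW and 1.84 to 20.0 in LBW, with 2 of 11 probes above 0, and its part was not tested.

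Under the liver label the differences ran from -1.37 for ALAS2 to 0.07, with 2 of 7 above 0. None passed an adjusted p under 0.05 by limma, where 0% of all probes did and 5.99% had an unadjusted p under 0.05. The lowest unadjusted p of the 7 was 0.28 (limma). No probe separated the groups, and of all probes 8.82% lay wholly above and 3.21% wholly below. The interval of HBE1 reached from -5.40 to 4.35. ABW replicate 3 set the sign for HBG1, whose difference was 0.07 and 0.02 on its probes with it and -1.30 and -1.54 without it. Slide 3 held the ABW arrays and LBW replicate 1. Within it, as with slide as a block, the differences ran from -2.17 to 0.31. HBZ (0.31) and both HBG1 probes (0.064 and 0.029) were above 0.

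**Figure D5:**
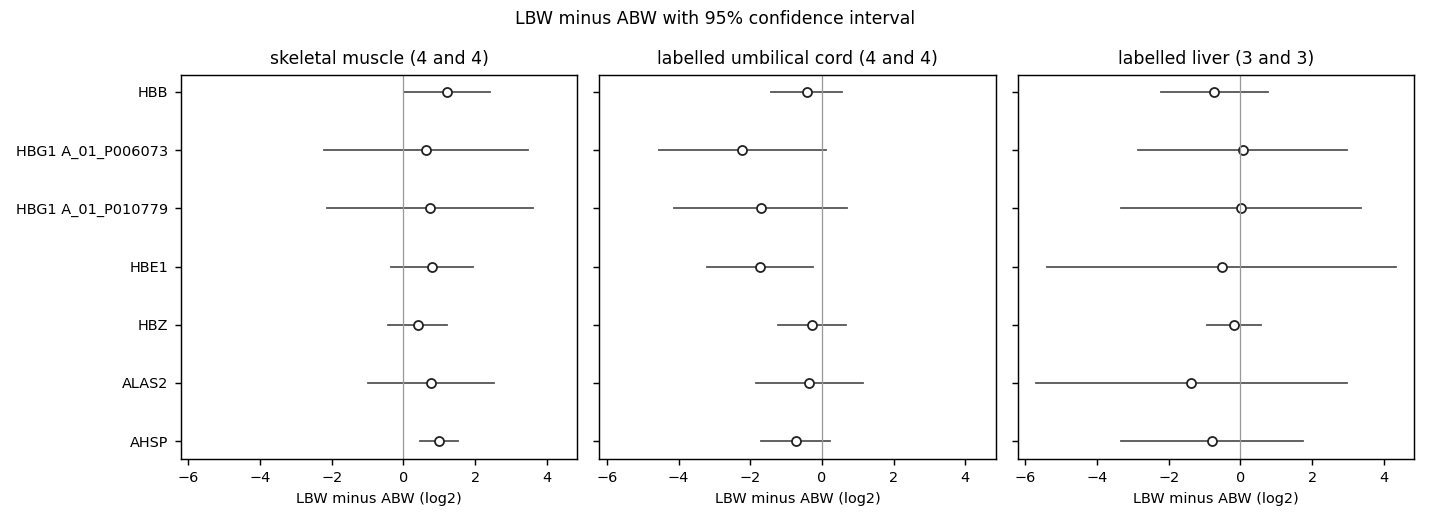
LBW minus ABW for each probe under each tissue label, in log2 units, with 95% confidence intervals from limma. Open points did not pass an adjusted p under 0.05. All 7 differences lay above 0 in skeletal muscle and below 0 under the umbilical cord label.

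Averaged over the 3 labels, none of the 7 probes passed, where 0.888% of all probes did, and the differences ran from -0.51 to 0.02 with no unadjusted p below 0.50 (limma). The interaction of birth weight and tissue label passed for none of the 7, where 1.01% of all probes did. The lowest p of this test was 0.058, for HBB (limma, adjusted p 0.52), so the opposite signs in muscle and under umbilical cord were not shown to differ. None of the 45 probes of the other red cell and haem lists passed an adjusted p under 0.05 under any label (limma), while 14 in muscle, 3 under umbilical cord and 0 under liver had an unadjusted p under 0.05. These are 31.1%, 6.67% and 0% of the 45, beside 14.7%, 8.94% and 5.99% of all probes. Their median differences were 0.03 in muscle, -0.13 under umbilical cord and -0.18 under liver, beside 0.07, -0.01 and 0.06 over all probes.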

How the data were processed

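RNA of 22 arrays was analysed in the groups given by the labels. The deposited intensity of each spot is, per the file headers, the signal of Agilent Feature Extraction after background subtraction and detrending, with no scaling between arrays. The authors' log2 table, scaled to the 75th percentile and with each probe's median set to 0 in each tissue, served as an alternative. The 2 spots of a probe were averaged without outlier spots, and log2 of the array's 75th percentile was subtracted from log2 of the mean. Probes had to be well above background on 75% of the arrays of any group. limma 3.58.1 in R 4.3.3 was fitted within labels and over 6 groups, with Benjamini-Hochberg adjustment over 17117 probes, and tested on simulated data. Exact permutation tests used Python 3.11.15. The labels number replicates without naming animals, so p-values measure the spread between these arrays, which may be in part technical. The members and lists were chosen with earlier results of these data known. Named genes were all members, and of the red cell and haem lists up to 3 probes in each direction of a comparison with an adjusted p under 0.05, by size. Likeness to HBB was taken over probes outside the members. Symbols of the lists were paired with RefSeq identifiers from general knowledge. Of 5 marker lists, hepatocyte, matrix, striated muscle, leukocyte and platelet, and endothelial, the last had 4 probes, summed to 51.2 to 94.7 under liver, 2.58 to 11.0 under umbilical cord and 9.13 to 17.2 in muscle. Alternatives covered background correction, scaling, the deposited table, a floor, filters, the methods' Welch test, the spread, weights, slide and replicate blocks, averaging per accession and leaving out arrays.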

Additional observations from a re-analysis of the deposited data

How the results depend on the processing

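The number of globin and erythroid probes called between LBW and ABW was 0 in skeletal muscle, under the umbilical cord and liver labels, in their mean and in the interaction, under every alternative run, the methods' Welch test after adjustment included. Between umbilical cord and liver 6 probes were called in most settings, 5 with array weights, and 1 within slide 4, which has 2 arrays a label. With probes averaged per accession, which merges the HBG1 probes, 5 of the 6 genes were called. Between muscle and umbilical cord 3 probes were called, 2 with normexp on median signals and 7 with spike-in scaling. The labels do not say whether same-numbered arrays come from the same animal. Per the methods muscle and liver were taken from the same neonates, so arrays of different labels may share animals. The main fits treated all arrays as independent. Same-numbered arrays did not deviate together throughout (Pearson r from -0.29 to 0.38), which cannot exclude shared animals with so few arrays. With the replicate block the calls were 6 between umbilical cord and liver and 5 between muscle and liver. They were 3 between muscle and umbilical cord and 0 between LBW and ABW. The normexp correction planned on mean signals was run on median signals instead, chosen after seeing the data, as were the fits within slide 4 and without slide 6.

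Leaving out 1 array at a time, the calls were 6 between umbilical cord and liver throughout, 5 to 6 between muscle and liver (6 without liver ABW replicate 3, which adds AHSP) and 3 to 4 between muscle and umbilical cord (4 without that array, which adds HBE1). The LBW minus ABW difference of HBG1 minus HBB ran from -1.06 to 0.37 in muscle and from -0.32 to 1.32 under liver, and that of HBE1 minus HBB under liver from -1.55 to 1.12, and it was -0.025 with quantile normalization. For the HBG1 probes A_01_P006073 and A_01_P010779 it ran from -0.26 to 1.52 and from -0.14 to 1.72 in muscle, and from -1.30 to 0.78 and from -1.54 to 0.82 under liver. Under liver it ran from -2.65 to 0.62 for HBE1 and from -0.44 to 0.11 for HBZ. Under umbilical cord it ran from -0.56 to 0.035 for HBZ and from -0.88 to 0.086 for ALAS2. None of these passed an adjusted p under 0.05. Other changes of sign were HBZ in muscle with spike-in scaling (-0.15), HBZ under liver within slide 3 and with slide as a block (0.31), ALAS2 under umbilical cord with normexp (0.17) and with ABW taken from slide 6 alone (0.082), and AHSP between umbilical cord and liver with spike-in scaling (0.053, and -0.90 to 0.013 when leaving out 1 array). The cause was not tested. ALAS2 in muscle lay close to background, which limits its differences there, and the number of arrays limits the precision of all.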

Other observations

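The probe annotated CN642745, which has no gene name in the tables used, was the probe outside the members that was most like HBG1 A_01_P006073 over the 22 arrays with group means removed (Pearson r 0.98), against 0.99 for the second HBG1 probe. This comparison was chosen after seeing the data.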
